A study of Mus musculus with 4 samples.

Results

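The coreceptor genes of T cells and the transcription factor genes that set the CD4 or CD8 fate were followed across 3 lists of ChIP-seq summits from mouse thymus. The 8 genes were Cd4, Cd8a, Cd8b1, Zbtb7b, Runx1, Runx3, Gata3 and Tox, out of 21887 protein-coding genes of the RefSeq table for GRCm38. They were chosen by name for their role, and every summit inside a gene or within 20 kb of either of its ends was taken as a member summit. A summit is the base of highest pile-up in a called peak. The 8 genes held 76 distinct summits, of which 21 of 3608 came from p53 replicate 1, 22 of 4767 from p53 replicate 2 and 33 of 4070 from PPAR-alpha. All libraries came from thymus of 4-week-old mice of genotype p53 AD/AD, a germline allele whose protein the study describes as dimeric p53, so every cell of the tissue carried it. There were 2 libraries for p53, read at 50 nt, and 1 for PPAR-alpha, read at 75 nt, so that antibody and read length cannot be told apart. A single input library of the same genotype was not analysed here, and no thymus with wild-type p53 was among the groups.

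Thymocytes pass from a stage that carries both coreceptors to one that keeps either CD4 or CD8. Cd4 encodes the coreceptor that binds MHC class II, and Cd8a and Cd8b1 encode the 2 chains of the coreceptor that binds MHC class I. Zbtb7b encodes ThPOK, the factor that commits cells to the CD4 fate, and Gata3 and Tox act before it. Runx3 commits cells to the CD8 fate and silences Cd4, a task that Runx1 carries out in earlier thymocytes. The Cd8 genes and Cd4 are known for several enhancers spread around them, and Runx genes are read from a distal and a proximal promoter. Trp53 is a tumour suppressor that binds DNA, and PPAR-alpha is a nuclear receptor of fatty acid metabolism.

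A summit lay within 250 bases before an annotated start at 2 members, Cd8a and Runx1, and at Flad1, a neighbour of Zbtb7b that held the highest score in any of the 8 windows. These stretches are shown because they are the places where a summit and a RefSeq promoter of GRCm38.p6 coincide. Each reads 5′ to 3′ on the gene's strand and ends at the base before the start. Capitals mark the 11 bases centred on the summit.
Cd8a, chr6:71373177-71373426, plus strand, summit of p53 replicate 1: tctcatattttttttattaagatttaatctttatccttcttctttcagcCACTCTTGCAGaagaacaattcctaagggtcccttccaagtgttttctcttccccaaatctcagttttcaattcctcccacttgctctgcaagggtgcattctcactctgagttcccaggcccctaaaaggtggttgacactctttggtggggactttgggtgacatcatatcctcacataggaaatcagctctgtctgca
Runx1 distal start, chr16:92826075-92826324, minus strand, summit of PPAR-alpha: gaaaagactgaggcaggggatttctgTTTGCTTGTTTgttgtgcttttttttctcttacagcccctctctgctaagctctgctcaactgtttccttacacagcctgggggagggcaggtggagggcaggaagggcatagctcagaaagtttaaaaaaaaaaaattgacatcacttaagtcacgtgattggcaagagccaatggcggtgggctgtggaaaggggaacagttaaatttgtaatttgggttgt
Flad1, chr3:89411882-89412131, minus strand, summit of PPAR-alpha: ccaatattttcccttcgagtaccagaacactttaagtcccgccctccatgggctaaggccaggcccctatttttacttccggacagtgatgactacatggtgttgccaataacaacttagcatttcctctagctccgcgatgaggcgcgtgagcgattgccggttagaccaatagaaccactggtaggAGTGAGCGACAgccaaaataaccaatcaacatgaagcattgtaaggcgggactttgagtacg

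Windows of 300 bases, from 250 before to 50 after a start, were in the RefSeq table for Cd8a and Gata3 (1 each) and for Zbtb7b, Runx1 and Runx3 (2 each). Cd4, Cd8b1 and Tox had no entry. Fixed letters were searched on both strands of these 8 windows. AGGTCA, the unit of nuclear receptor sites such as those of PPAR-alpha, was in none of the 8, where 16.3% of all 32851 windows hold it. Its direct repeat, 2 copies with 1 base between them, was also in none (0.0396% of all windows). CATG, common letters at the core of p53 sites, was in 1 of 8, at Zbtb7b (61.1% of all). TGTGGT, the RUNX letters, was in 3 of 8 (16.8%), AGATAA, the GATA letters, in none (11.2%), and GGGCGG, the GC box, in 4 (35.7%). These are matches of letters, and the 300 bases do not reach most of the summits below.

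The distal windows of Runx1 and Runx3 shared an arrangement of the RUNX letters, shown here because both genes encode RUNX factors. Capitals mark each match, read as ACCACA on the gene's strand.
Runx1, chr16:92826027-92826052, minus strand: taaacaACCACAgaACCACAagttgg
Runx3, chr4:135120505-135120530, plus strand: ccctcaACCACAgaACCACAaggcca
The first match began 28 bases after the start in Runx1 and 134 bases before it in Runx3, and the matches began 8 bases apart in each. Matches that begin within 12 bases of each other were in 56 of all 32851 windows, or 0.17%. This search was added after the sequences were seen. No p53 summit lay in the distal 300-base window of Runx1, and no summit of any list in that of Runx3.

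How many of the 8 genes had summits? In p53 replicate 1, 7 of 8 had a summit inside or within 20 kb, where 20.8% of all protein-coding genes did. In p53 replicate 2 it was the same 7 genes, all but Zbtb7b (25.7% of all genes), and these 7 had summits in both p53 replicates (14.4%). In PPAR-alpha 7 of 8 had a summit, all but Runx3 (20.4%). Summits in all 3 lists lay at 6 genes, Cd4, Cd8a, Cd8b1, Runx1, Gata3 and Tox, where 9.88% of all genes had them. Longer genes have longer windows. Of the 990 genes of 200 kb or longer, which include Runx1 and Tox, 8.28% had summits in all 3 lists.

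Per length the windows of the 8 genes were denser than those of all coding genes, with and without the Cd8 genes. Over the 998 kb of the 8 windows the lists gave 2.1, 2.4 and 3.61 summits per 100 kb, in the order p53 replicate 1, replicate 2, PPAR-alpha, beside 0.337, 0.442 and 0.347 over the windows of all coding genes. Without Cd8a and Cd8b1, a division made after the counts were seen, the rates were 0.891, 1.34 and 1.67. The Cd8 locus held 13 of 21, 10 of 22 and 18 of 33 distinct summits. The highest p53 rate was 16.5 in each replicate at Cd8b1, which had the same rate in PPAR-alpha, and the highest PPAR-alpha rate was 26.2 at Cd8a. The lowest were 0 in both p53 replicates at Zbtb7b and 0 in PPAR-alpha at Runx3. Tox had 0.290, 0.290 and 0.579, its p53 rates under those of all coding genes. The members were proposed with earlier results of these data known, so these counts are a description and carry no test.

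**Figure D1:**
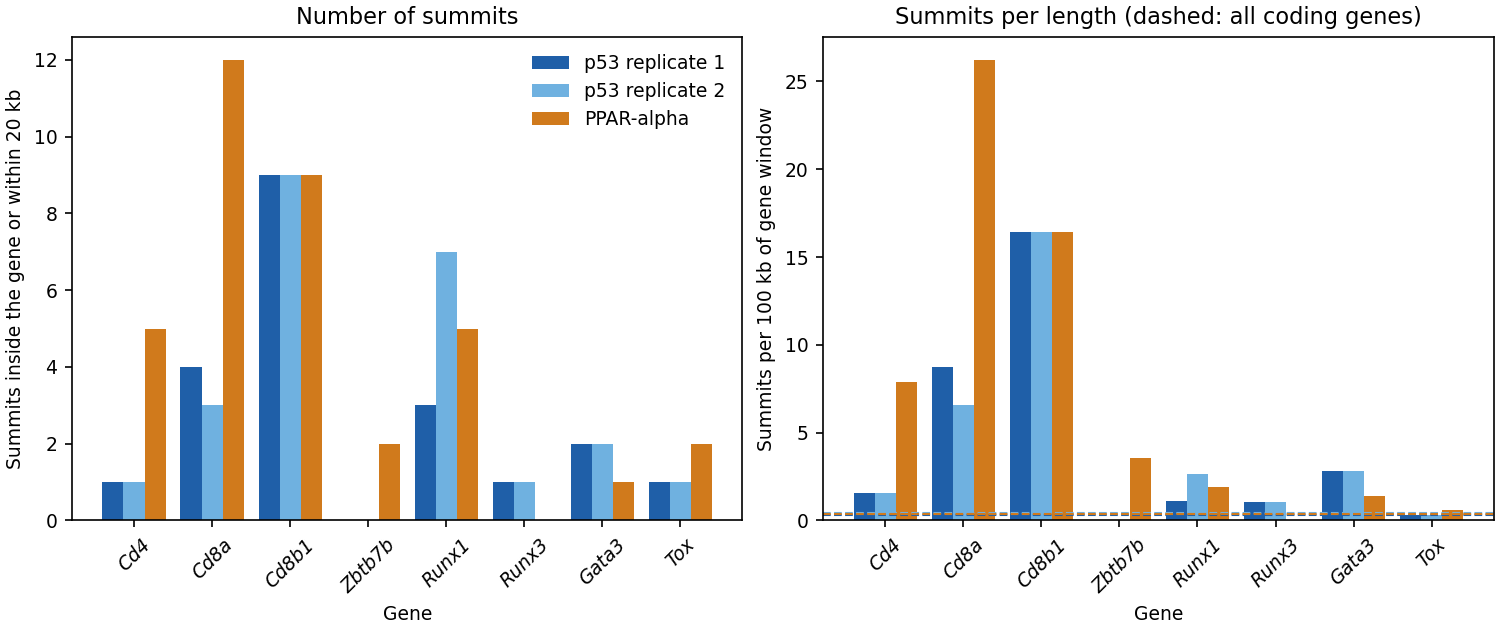
Number of summits (left) and summits per 100 kb of gene window (right) for each of the 8 genes, with 1 bar per list; dashed lines give the rate over all protein-coding genes. Cd8b1 had 9 summits in each list and Cd8a had 12 in PPAR-alpha against 4 and 3 in p53, while Zbtb7b lacked p53 bars and Runx3 lacked a PPAR-alpha bar.

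The lists as a whole set the scale for these values. The deposited score describes the strength of a summit within its own list. Its median was 3.99 and 3.62 in p53 replicates 1 and 2 and 4.70 in PPAR-alpha. Depth is unknown, since the sources used here state no read numbers, so that more summits in a list need not mean more binding. T cell markers had summits in 9, 9 and 10 of 10 cases, beside 1, 1 and 3 of 6 myeloid and 0, 1 and 0 of 6 thymic epithelium markers. Windows of neighbouring genes can overlap, and a summit then counts for each, so the 10 cases need not be separate loci. Over all coding genes the shares were 20.8%, 25.7% and 20.4%. With 6 genes, the epithelium counts and the p53 counts of the myeloid markers are not far from those shares. The marker lists were chosen with earlier results of these data known, so their counts are a description and not an independent check. Foxn1, Krt5, Krt8, Epcam and Aire of the epithelium had none. Thymus is a mixture, and which of its cells carried a summit cannot be told from these lists.

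The Cd8 genes lie next to each other on chromosome 6, Cd8b1 at 71322788 to 71337492 and Cd8a at 71373427 to 71379171, and p53 and PPAR-alpha summits were spread over both and over the space between. From 20 kb before Cd8b1 to 20 kb after Cd8a the locus held 41 of the 76 distinct summits, 13 from p53 replicate 1, 10 from p53 replicate 2 and 18 from PPAR-alpha. Their scores ran from 2.18 to 6.24, from 1.83 to 5.88 and from 2.11 to 11.5 in that order. Counted by stretch, inside Cd8b1 lay 5 and 5 p53 summits and 2 of PPAR-alpha, and the 35.9 kb between the genes held 5 and 4 of p53 and 11 of PPAR-alpha. The windows of the 2 genes overlap, and 5 summits counted for both. The count for Cd8b1 (27 summits over the 3 lists) was reached by 18 of all coding genes, itself included, and that for Cd8a (19) by 31.

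In and around Cd8b1, p53 summits formed a run. A run is taken here as at least 3 summits of 1 list with gaps of at most 5 kb. In p53 replicate 1 it held 8 summits from 71326508 to 71341021, 5 of them inside the gene and 3 past its upper end, and 5 of the 75 runs of that list, this one included, were as large. In p53 replicate 2 it held 5 summits from 71324314 to 71333535, all inside the gene, a size that 21 of 144 runs reached. The highest p53 summits of the gene lay at 71332363 in replicate 1 (score 6.24) and at 71327083 in replicate 2 (5.88), with no summit of the other replicate within 100 bp of either. The nearest summit of the other replicate lay 385 and 575 bp away. The other summits of replicate 1 inside the gene were 2.74 at both 71326508 and 71330840, 4.70 at 71333171 and 3.99 at 71333754. Those of replicate 2 were 1.83 at 71324314, 4.33 at 71330660, 2.37 at 71332748 and 1.83 at 71333535. The p53 replicates thus lay in the same stretch of the gene with summits 180 to 575 bp apart, apart from the summit at 71324314. PPAR-alpha had 71324388 (2.57) and 71333052 (6.55) inside the gene, the first of them 74 bp from the replicate 2 summit at 71324314.

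Just past the upper end of Cd8b1 lay summits that ranked high in the PPAR-alpha list. Its 3 summits at 71338074, 71338764 and 71341076 scored 9.27, 11.5 and 8.57, and 87.6% of that list scored no higher than the middle one. The p53 summits there, at 71337866, 71340327 and 71341021 in replicate 1 and at 71339411 and 71341524 in replicate 2, scored between 2.37 and 5.45. Replicate 1 at 71341021 and PPAR-alpha at 71341076 were 55 bp apart.

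Further on, near the middle of the space, all 3 lists had a summit within 540 bp. PPAR-alpha lay at 71353831 (10.7), p53 replicate 2 at 71353776 (2.37), 55 bp away, and p53 replicate 1 at 71353291 (6.24). From there PPAR-alpha ran on as a run of 6 summits to 71361742, a size that 14 of 128 runs of its list reached, the other 5 scoring from 2.11 to 5.30. In that run p53 replicate 1 had no summit and replicate 2 had 71357483 (2.37).

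Cd8a itself showed PPAR-alpha summits on both sides and p53 summits in replicate 1. PPAR-alpha had 71369619, 3808 bp before the start (10.7), then 71371506 (2.57), 71373564, 137 bp after the start (4.13), and 71379825, 654 bp past the upper end (5.91). p53 replicate 1 had 71373231, 196 bp before the start and shown above (3.99), and 2.74 at both 71376538 and 71377227 inside the gene. p53 replicate 2 had none inside Cd8a or within 14 kb of it, its nearest lying 14899 bp away (1.83), so p53 at the Cd8a promoter was seen in 1 of 2 libraries. The 5 remaining summits of the Cd8 locus were 7.88 in PPAR-alpha before Cd8b1, nearest to Gm1070, and 4 of the 3 lists, scoring 1.83 to 2.57, inside the neighbour Rmnd5a. The limit of 20 kb fell within this locus: 71357483 counted for Cd8b1 at 19991 bp, while 71353291 missed Cd8a at 20136 bp and entered through Cd8b1.

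**Figure D2:**
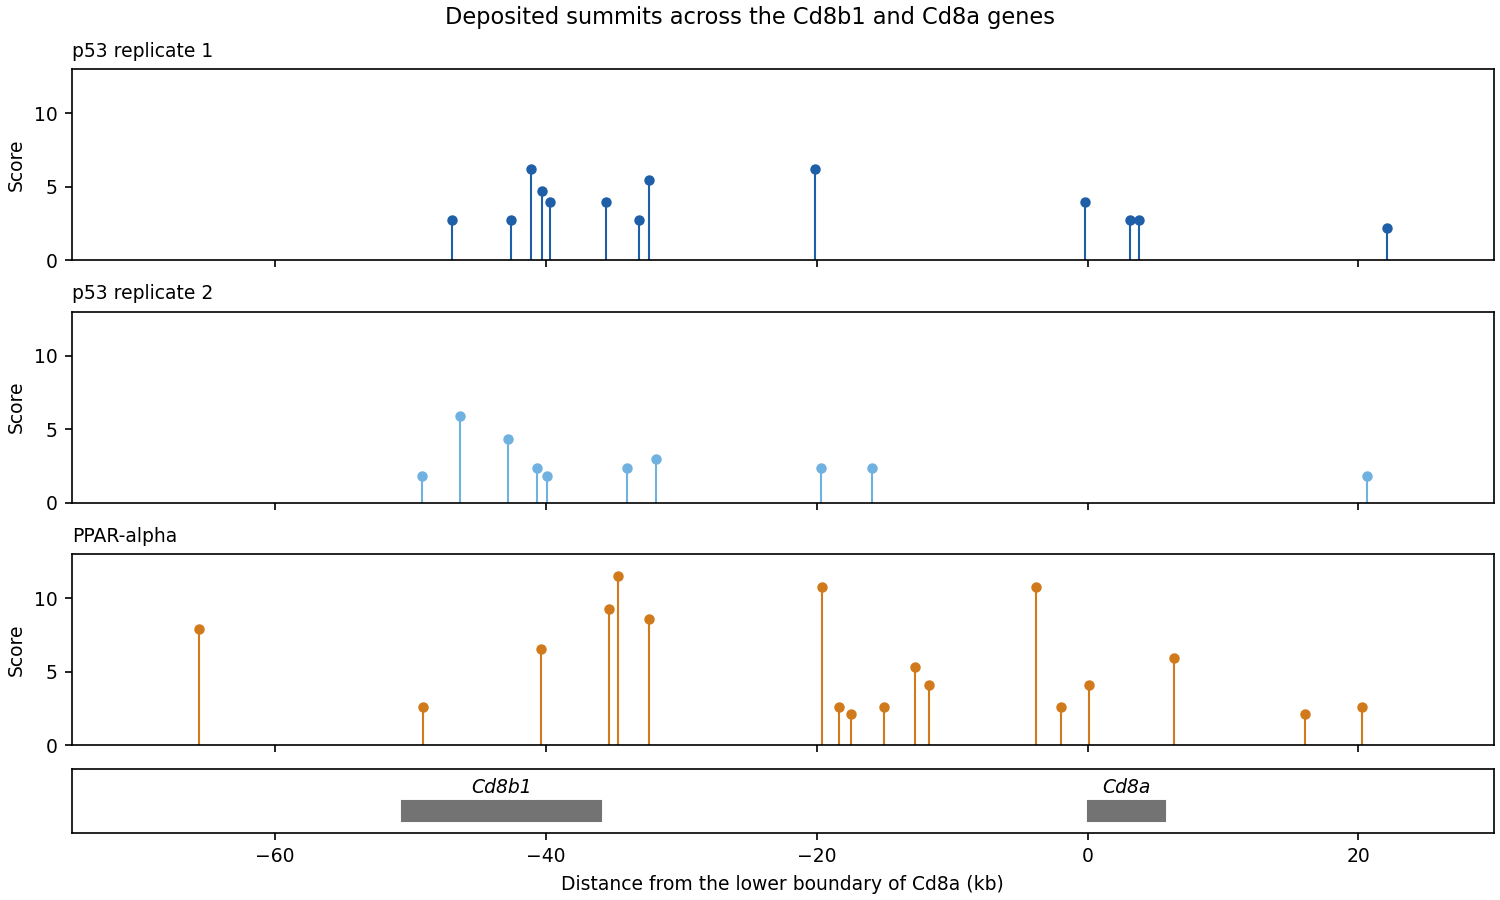
Deposited score of each summit (vertical axis) against distance from the lower boundary of Cd8a in kb (horizontal axis), 1 panel per list, with grey bars for the 2 genes. p53 summits gather in and just past Cd8b1, and the 18 PPAR-alpha summits, up to 11.5, reach across the space between the genes to Cd8a.

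Cd4, on chromosome 6 at 124864693 to 124888247, had summits of all 3 lists near its upper end, none of them shared within 100 bp. p53 replicate 1 had 124885884, 2363 bp inside that end (3.99), and p53 replicate 2 had 124888879, 632 bp beyond it (4.33). They lay 2995 bp apart, so the p53 replicates each held a summit at the gene and did not place it alike. PPAR-alpha had 124886084 (5.91), 200 bp from that of replicate 1, and 124886617 (3.58) inside the gene. Its other 3 summits lay nearer to neighbours, 124864098 (4.13) inside Gpr162 at the lower end of Cd4, and 124899354 (3.58) and 124900585 (6.55) nearest to Lag3, which encodes a CD4-like inhibitory receptor.

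Runx1, on chromosome 16 at 92601466 to 92826074, held the one site that all 3 lists shared within 100 bp. p53 replicate 1 had 92801775 (4.70), PPAR-alpha 92801799 (6.55) and p53 replicate 2 92801838 (4.33), a span of 63 bp that lies about 24 kb after the distal start (24299, 24275 and 24236 bp). A site shared by all 3 lists lay at 1 of the 8 genes, beside 2.10% of all coding genes. An enhancer active in blood stem cells is known within Runx1, but its position was not used here, and the gene table gives no exons, so exon and intron were not assigned.

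Both Runx1 starts also had summits of more than 1 list nearby, at larger spacing. At the proximal start p53 replicate 1 lay 47 bp after it (92697282, 2.74), p53 replicate 2 lay 646 bp before it (92697975, 3.62) and PPAR-alpha 780 bp before it (92698109, 5.30). Around the distal start p53 replicate 2 had 3 summits, 125, 939 and 3856 bp after it (2.97, 3.62 and 1.83). PPAR-alpha had 3 as well, 219 bp before it and 752 and 3959 bp after it (4.13, 4.70 and 3.06), so the distal start was marked in p53 replicate 2 and PPAR-alpha and not in p53 replicate 1. Between the starts both p53 replicates met within 232 bp at 92741316 (5.08, replicate 2) and 92741548 (2.74, replicate 1), with no PPAR-alpha summit within 43 kb. Replicate 2 had 1 more, 92715901 (1.83). In all, Runx1 had 3, 7 and 5 summits.

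Runx3, on chromosome 4 at 135120645 to 135177990, had a p53 site and no PPAR-alpha summit. The p53 summits lay at 135154000 in replicate 1 (4.70) and 135154002 in replicate 2 (10.3), 2 bp apart and 1455 and 1457 bp after the proximal start. The second is the highest p53 score at any of the 8 genes, and 96.4% of its list scored no higher. The nearest PPAR-alpha summit lay 28462 bp from the gene (4.70), nearer to Clic4.

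Gata3, on chromosome 2 at 9857078 to 9887953, had a p53 site of the same kind. Replicate 2 had 9877127 (4.33) and replicate 1 had 9877129 (6.24), 2 bp apart. They lay 1473 and 1471 bp after the RefSeq start of the gene's promoter window, and 10826 and 10824 bp inside the upper end of the gene. PPAR-alpha had its one summit at 9877477, 348 bp from that of replicate 1 (2.57), a score that 13.4% of its list did not exceed. A further p53 summit lay deeper in the gene in each replicate, at 9872205 (5.45) and 9871479 (2.97), 726 bp apart. Sites shared by both p53 replicates within 100 bp thus lay at 3 of the 8 genes, Runx1, Runx3 and Gata3, where 5.63% of all coding genes had one.

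Tox, on chromosome 4 at 6686353 to 6991557, encodes an HMG-box factor needed for CD4 cell development. All its summits lay inside the gene. Near the upper end p53 replicate 2 had 6990291 (6.72) and PPAR-alpha 6990242 (3.58), 49 bp apart, and p53 replicate 1 had 6989309 (7.07), the highest score of that replicate at the 8 genes, 982 bp from that of replicate 2. PPAR-alpha had a second summit 89239 bp from that end (6902318, 10.7), with no p53 summit within 86 kb.

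Zbtb7b, on chromosome 3 at 89377644 to 89393673, was the member without p53. The nearest p53 summits lay 189654 bp away in replicate 1 and 193893 bp away in replicate 2. PPAR-alpha had 89396198, 2525 bp past the upper end of the gene (2820 bp before its nearer start), with a score of 19.8 that 94.6% of its list did not exceed. The other PPAR-alpha summit of the window, 89411938, scored 136, the highest at the 8 genes and rank 32 of its list. It lay 18265 bp from Zbtb7b and 57 bp before the start of Flad1, the FAD synthase gene, in the stretch printed above, so it entered through the width of the window. With the nearest gene alone Zbtb7b had 1 summit.

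**Figure D3:**
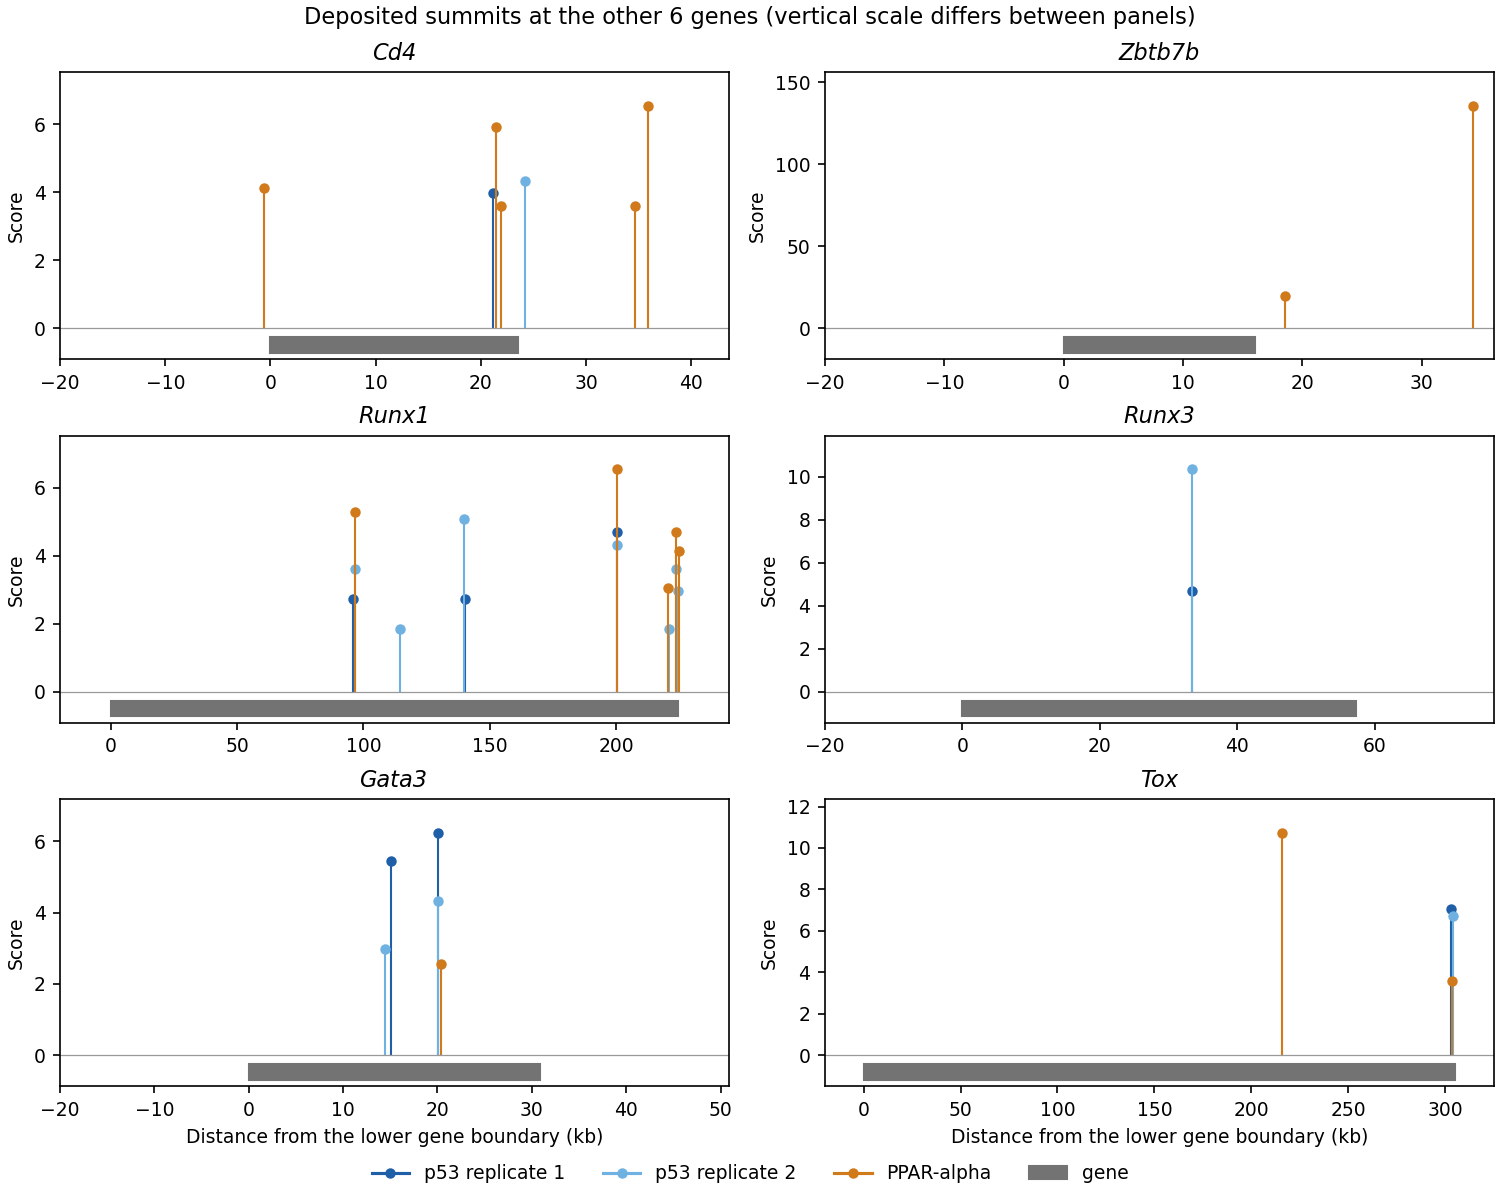
Deposited score of each summit (vertical axis, scaled per panel) against distance from the lower boundary of each gene in kb (horizontal axis), coloured by list, with a grey bar for the gene. At Runx1 all 3 lists meet about 200 kb from the lower boundary, at Runx3 the 2 p53 summits coincide, and at Zbtb7b the 2 PPAR-alpha summits lie outside the gene.

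Did the lists place their summits alike at these genes? Within 100 bp few met. Of the 21 member summits of p53 replicate 1, 3 had a replicate 2 summit that near (14.3%, exact Clopper-Pearson 95% interval 3.05 to 36.3%), where 20.8% of all summits of the list had one. Of the 33 member summits of PPAR-alpha, 5 met a summit of either p53 replicate (15.2%, 5.11 to 31.9%), where 27.1% of its whole list did. The intervals hold the value of the whole list in each case. They cover counting error alone, and summits of 1 locus are not independent. Joined within 100 bp, the 76 summits made 68 sites, 61 of them with 1 list, 6 with 2 lists and 1 with all 3.

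At 500 bp the sharing was wider. The 76 summits then made 50 sites, 13 with 2 lists and 5 with all 3, at Runx1, Gata3 and 3 places of the Cd8 locus. Summits were joined from neighbour to neighbour, so a site can be wider than 500 bp. Those 3 places spanned 1391, 503 and 540 bp. The share of p53 replicate 1 member summits met by replicate 2 became 42.9% (21.8 to 66%), beside 43.5% over the list, and that of PPAR-alpha met by p53 became 45.5% (28.1 to 63.6%), beside 53.8%. From p53 replicate 2 it went the other way, with 59.1% of its member summits met by PPAR-alpha (36.4 to 79.3%), beside 35.1% over the list, and 72.7% met by either other list (49.8 to 89.3%), beside 50.7%. The interval of the share met by PPAR-alpha leaves out the value of the list, and that of the share met by either other list holds it. Seen from PPAR-alpha, 36.4% of its member summits met p53 replicate 2 (20.4 to 54.9%), beside 40.5% over its list. From p53 replicate 1, 33.3% met PPAR-alpha (14.6 to 57%), beside 38.2%. These intervals hold the value of their list. Shares were looked at for several lists and distances, so the higher share from replicate 2 is a description alone. The replicate 2 summits met by PPAR-alpha lay at Runx1, Gata3 and Tox as well as at the Cd8 locus. Whether summits placed without regard to each other would fall within 500 bp as often was not tested.

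Scores at the 8 genes lay in the middle of their lists. The medians of the member summits were 3.99, 2.97 and 4.70, beside 3.99, 3.62 and 4.70 for the whole lists. Scores above the median of their list were held by 9 of 21, 8 of 22 and 16 of 33. A score of 10 or more was reached by 0, 1 and 6 member summits, where 5.38%, 4.3% and 16% of the lists did so. The 6 of PPAR-alpha were those at Flad1 and beside Zbtb7b, the 3 of the Cd8 locus and that inside Tox. Runs held 11 of 21, 8 of 22 and 15 of 33 member summits, while 9.17%, 12% and 11.9% of all summits lay in runs. The member runs lay at the Cd8 locus, and in p53 replicate 2 and PPAR-alpha also at Runx1. The other members had none.

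**Figure D4:**
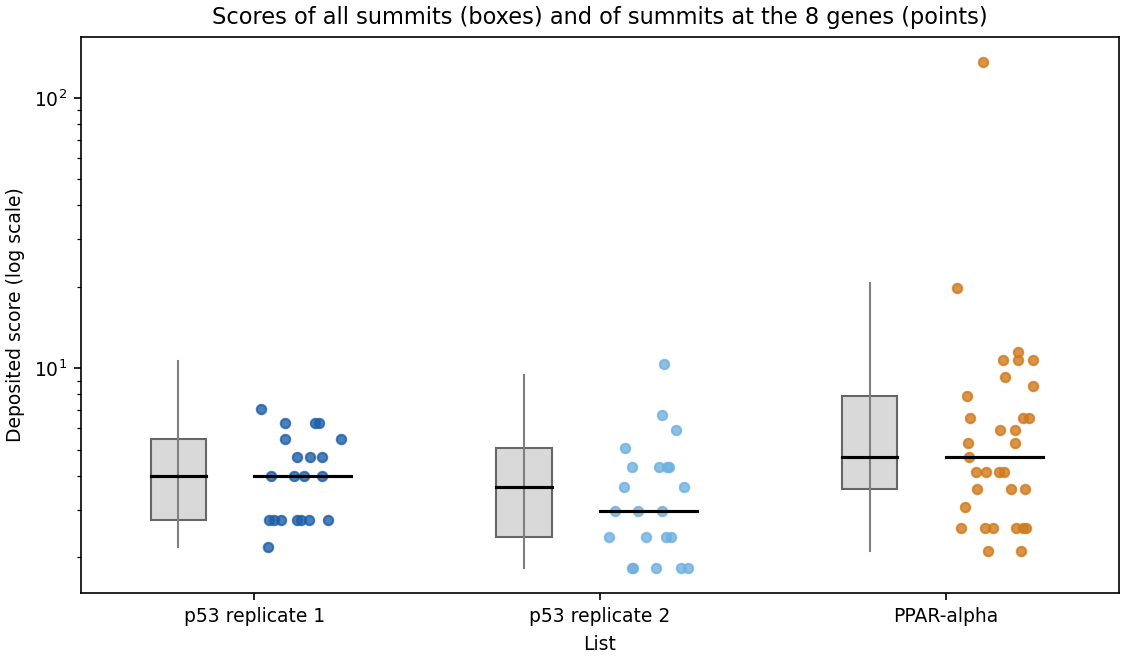
Deposited score on a log scale for all summits of each list (grey box from the lower to the upper quartile with the median as a line, whisker from the 5th to the 95th percentile) and for the summits at the 8 genes (points, black line at their median). The medians at the 8 genes are 3.99, 2.97 and 4.70, and the PPAR-alpha point of 136 is the summit at Flad1.

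Other genes of the same network gave a frame for these counts. Of 25 further regulators of CD4 and CD8 fate, 17, 19 and 19 had a summit inside or within 20 kb in the 3 lists, in the same order, and 13 had them in all 3. Over all coding genes the shares were 20.8%, 25.7% and 20.4%, and 9.88% for all 3. The windows of the 25 regulators held 3.18, 3.52 and 2.7 summits per 100 kb. Satb1 had the most of them, with 17, 15 and 12, and these rates were not split by gene. A site shared by all 3 lists within 100 bp lay at Tcf7, Lef1 and Lck, the first 2 genes for HMG-box factors that act upstream of both fates and the third for the kinase bound to the coreceptors. No summit lay at Id2, Il7r, Eomes and Tbx21. Cbfb encodes the partner of all RUNX factors. It had 2, 1 and 0 summits, the highest scoring 3.34 in p53 replicate 1. Its lack of a PPAR-alpha summit is common, since 20.4% of all coding genes had one. Smarce1 (1, 1 and 0 summits) and Runx3 lacked one too, while Runx1 had 5. Patz1, a further repressor of Cd8 and Zbtb7b, had 2, 3 and 5.

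The genes most like Cd8b1, by the Euclidean distance between the 3 counts of summits, were Supt4a (8, 8 and 10, distance 1.73), Tcf7 (10, 8 and 8, distance 1.73) and Sfi1 (8, 9 and 7, distance 2.24). Cd8b1 had 9, 9 and 9. The likeness is over 3 libraries and uses numbers of summits alone.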

How the data were processed

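Chromatin of p53 AD/AD thymus was immunoprecipitated for p53 (2 libraries) and PPAR-alpha (1 library) and sequenced. Per the submitters' processing notes the tools were MACS2 2.1.2, Picard 2.9.0 and Bowtie2 2.3.4.2, whose roles and settings no label states. The authors deposited 1 list of summits per library, and the deposited score was taken as −log10 of a p-value or q-value, judged by its form and range alone. The sources used here state no threshold, control or read numbers. The labels do not say that the p53 libraries came from separate mice.

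The processing notes name the human build GRCh38. Within 1 kb of a coding gene's end on GRCm38 lay 49.2%, 49.0% and 42.0% of the summits as deposited, and 6.38 to 7.82% after moving them by 20 or 50 kb, so GRCm38 genes were used. The gene table has no strand, which came from the promoter table for 5 members.

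Summits inside or within 20 kb were listed per gene, counted from 1. Lists share a site where summits lie within 100 bp, and sites were joined by single linkage. Shares have exact Clopper-Pearson 95% intervals. The counting was tested on simulated data. Named genes are the members, the nearest genes of their summits, and those of the further regulators with a shared site. Others were chosen after their values were seen (Cbfb, Patz1, Smarce1, Satb1 and those without a summit). Members and lists were chosen with earlier results of these data known, and no test was run. The list of B cell markers is not reported here. Python 3.11.15, pandas 2.3.3, NumPy 2.4.6 and SciPy 1.17.1 were used.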

Additional observations from a re-analysis of the deposited data

How the results depend on the processing

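Of 74 alternative values, 46 stayed within 1.5 times the reported count or within the interval of the reported share, and 28 did not. The numbers of genes with a summit kept that range under other windows, with the nearest gene alone and without runs. Score floors changed the most. At scores of 5 or more, 3, 4 and 6 genes (p53 replicate 1, p53 replicate 2, PPAR-alpha) had summits, 2 in all 3 lists, with 6, 4 and 16 summits and 0 sites in all 3 lists. At 10 or more, 0, 1 and 4 genes had them, 0 in all 3 lists, with 0, 1 and 6 summits and 0 such sites. The share of all coding genes was not counted under any of these alternatives, so the gene counts here cannot be set beside it. PPAR-alpha summits numbered 12 inside genes and 21 within 5 kb. Without runs the lists held 10, 14 and 18 summits, and without Cd8a and Cd8b1, an alternative added after seeing the data, 8, 12 and 15. With neighbouring summits joined within 500 bp, 5 sites held all 3 lists, and the shares met within 500 bp were 42.9% and 45.5%. Requiring PPAR-alpha and 1 p53 replicate gave 2 sites without replicate 2 and 4 without replicate 1. No paired analysis was possible because PPAR-alpha has 1 library and no test was run. Depth is unknown, so a missing summit is not missing binding.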
